A study of Mus musculus with 2 samples.

Results

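Subcluster 10 of the deposited clustering at resolution 0.8 held 129 of 5976 cells that were sorted from mouse B16F10 melanomas for the surface proteins CD45 and JAML, and all 129 lay in the cluster that the authors named after Cd3g. The working name, central memory-like CD8 T cells with Dapl1, rests on Dapl1, Tcf7, Ccr7 and Satb1. The cells came from 3 tumours marked by hashtags in 1 gene expression library, with 41, 22 and 66 cells of subcluster 10 in mice 1, 2 and 3. The hashtag names read as isotype controls, so every cell shared this treatment and there was no second condition. JAML is a surface receptor of the junction adhesion molecule family that can costimulate T cells, and the sort took only cells that carried it. The labels speak of T cells, the extraction text uses the word TREG, and the annotation's species field reads Human, while the gene symbols are those of mouse. Mouse age, sex and strain were not given in the sources used here. The study gives n = 3 and each hashtag is taken as 1 animal, and if that were wrong the spread between hashtags would be technical only.

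Central memory CD8 T cells are antigen-experienced cells that recirculate through lymph nodes, to which the chemokine receptor CCR7 helps direct them. The transcription factors TCF-1 (Tcf7), LEF-1 (Lef1) and SATB1 keep naive, memory and stem-like CD8 T cells in a less differentiated state, whereas ID2 and T-bet accompany effector differentiation. Virtual memory cells share many of these transcripts and arise without encounter of a foreign antigen. Dapl1 encodes a small protein whose transcript is known from naive, memory and stem-like CD8 T cells.

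Each cell was given to a mouse by a hashtag oligonucleotide of 15 bases that was attached to an antibody, and these sequences are shown because every value per mouse rests on them. Written 5′ to 3′, with every base part of the tag, they were as follows.
Mouse 1, tag B0301: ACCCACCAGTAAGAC
Mouse 2, tag B0302: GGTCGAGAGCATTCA
Mouse 3, tag B0303: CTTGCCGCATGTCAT
The tags of mice 1 and 2 differed at 11 positions, and those of mouse 3 differed from each of the others at 12. No cell of subcluster 10 lacked a tag, against 8 cells in the series, and no cell barcode was repeated.

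Subcluster 10 made up 1.68%, 1.86% and 2.82% of the cells of mice 1, 2 and 3, a mean of 2.12% ± 0.615 (SD, n = 3). Of the cells of the Cd3g cluster it made up 8.99%, 6.45% and 5.75%. The order of the mice thus turned with the denominator. Among cells of the Cd3g cluster that carried UMIs (unique molecular identifiers) of Cd8a or Cd8b1 and of a Cd3 gene and none of Cd4, the mean share was 11.1%. Subcluster 1, its largest neighbour there, made up 14.0%, 36.4% and 52.0% of the Cd3g cluster, a wider spread. The 129 cells held 1824568 UMIs, 601823, 352731 and 870014 in the 3 mice, with a median of 12526 UMIs and 2772 genes per cell. The 2 CD8 neighbours compared here, subclusters 1 and 7, were shallower, with medians of 8550 and 8830 UMIs. Subcluster 5, which the authors placed in the Pdcd1 cluster, was deeper at 21009.

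The CD8 T cell identity was checked against its markers. A UMI of Cd8a or Cd8b1 was present in 118 of the 129 cells (91.5%, exact 95% interval 85.3 to 95.7), in 34 of 41, 20 of 22 and 64 of 66 cells by mouse. Cd8a, the coreceptor alpha chain, stood at 309, 419.6 and 384 CPM (the UMIs of a gene, summed over a class of cells and scaled to a fixed total) in mice 1, 2 and 3, below 607, 788 and 615 CPM in subcluster 1. Cd4 had UMIs in 3 cells, all of mouse 1, and Foxp3 has no row in the matrix. Cd3e, a chain of the CD3 complex, was found after thinning to 5000 UMIs in 81.4% of subcluster 10 and in 3.04% of the plasmacytoid dendritic-like Siglech cluster, which should lack it (unthinned 98.4% and 6.61%, median depths 12526 and 13486 UMIs).

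Markers of other cell types were present at differing levels. The 8 B cell genes with a row summed to 174 to 229 CPM over the mice, against 186 to 212 in the other cells of the Cd3g cluster and 37.7 to 85.4 in subcluster 5. Ighm, the heavy chain gene of IgM, was at 191, 173 and 147 CPM and was called higher against subcluster 5 (56.9, 29.96 and 69.3 CPM). Cd79a, Ms4a1 and Ebf1 of the same list had 0 UMIs in the 129 cells, which allows up to 1.64 CPM (3 UMIs over the group). The 12 NK and innate-like genes summed to 264 to 753 CPM over the mice, against 1217 to 3716 in the other cells of the Cd3g cluster, 489 to 779 in subcluster 1 and 283 to 559.8 in subcluster 7, so the range overlapped those of both CD8 neighbours. Klra7, a receptor of the Ly49 family, was at 43.2, 82.2 and 29.9 CPM and was called higher against subclusters 1 (20.2, 23.2 and 12.3) and 5 (6.97, 3.85 and 2.31), and the NK receptor gene Ncr1 was at 0.554 ± 0.959 CPM. The 12 macrophage and monocyte genes summed to 1486 to 1984 CPM in subcluster 10 and 1599.8 to 2422 in the rest of that cluster. Most of that sum was Ly6c2, which memory CD8 T cells express themselves. The 14 conventional dendritic genes summed to 613 to 3210.2 CPM, an uneven range. Xcr1 was at 0.554 ± 0.959 CPM. The complement gene C1qa had 71 UMIs in 7 cells, with 1 cell of at least 5 UMIs. Transcripts of Lyz2, a myeloid gene, were spread over all T cell subclusters: at 5000 UMIs 27.9% of subcluster 10, 34.1% of subcluster 1 and 31.2% of the Siglech cluster had a UMI (unthinned 54.3%, 52.7% and 63.5%, median depths 12526, 8550 and 13486 UMIs). The comparisons were repeated without T cells that had 2 UMIs of Cd79a, Lyz2 or C1qa, as given further below. The part of such transcripts in the results was not tested otherwise.

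The 4 marker genes that gave the cells their name are described first. The cells were clustered on their transcripts, so differences between subcluster 10 and other cells are descriptions without a test. A gene is called higher or lower here when it differed at least 2-fold the same way in all 3 mice and reached 30 CPM in the higher class. Log2 differences are on the scale of CPM + 1, as mean ± SD over 3 mice.

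Dapl1 stood at 123, 189.9 and 306 CPM in mice 1, 2 and 3, the highest mean of 16 subclusters (206 ± 92.5, against 127 ± 85.1 in the next, subcluster 7). In such rankings the means of subclusters 14 and 15 rest on 2 mice, since each had 9 cells in 1 mouse. Mouse 3 was highest in subcluster 10 and lowest in subcluster 1 (74.2, 34.7 and 3.78 CPM in mice 1, 2 and 3) and in subcluster 7 (175, 177 and 28.3). The gene was called against neither. In mouse 1 subcluster 10 was under 2-fold above subcluster 1 (123 against 74.2 CPM) and below subcluster 7 (175 CPM). In mouse 2 it was also under 2-fold above subcluster 7 (189.9 against 177 CPM). The mean log2 difference from subcluster 7 was 1.00 ± 2.09 and became -0.20 without mouse 3. Against subcluster 5, with 43.7, 39.8 and 86.6 CPM, and against all other cells, Dapl1 was called higher, by 1.84 ± 0.38 and 3.62 ± 0.77.

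Tcf7, which encodes TCF-1, stood at 397, 329 and 324 CPM and again had the highest mean of the 16 subclusters, 350.0 ± 40.8, before 230.0 ± 39.2 in subcluster 3 of the Cd3g cluster. It was at 96.1, 139 and 52.6 CPM in subcluster 1, a log2 difference of 1.96 ± 0.69. In subcluster 7 it was at 209.9, 219 and 94.8 CPM, lower in each mouse but under 2-fold in mice 1 and 2. Satb1, a chromatin organiser of T cells, stood at 312, 340.2 and 344 CPM, close together over the mice, against 70.8, 49.9 and 25.7 in subcluster 1 and 187, 114 and 59.5 in subcluster 7. Subcluster 10 exceeded both in every mouse, by 2.85 ± 0.79 (called) and 1.61 ± 0.89 (not called) on the log2 scale.

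Ccr7 stood at 135, 130.4 and 166 CPM, above 27.0, 16.04 and 11.2 in subcluster 1, 56.4, 28.5 and 19.98 in subcluster 7 and 16.8, 42.8 and 56.6 in subcluster 5. The groups did not overlap, and Ccr7 was the marker called higher in all 5 comparisons. Its log2 difference was 3.00 ± 0.75 from subcluster 1 and 2.13 ± 0.87 from subcluster 7. Across the series subcluster 10 came second, far below subcluster 12 at 1697 ± 252 CPM, which lies outside the Cd3g cluster.

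**Figure D1:**
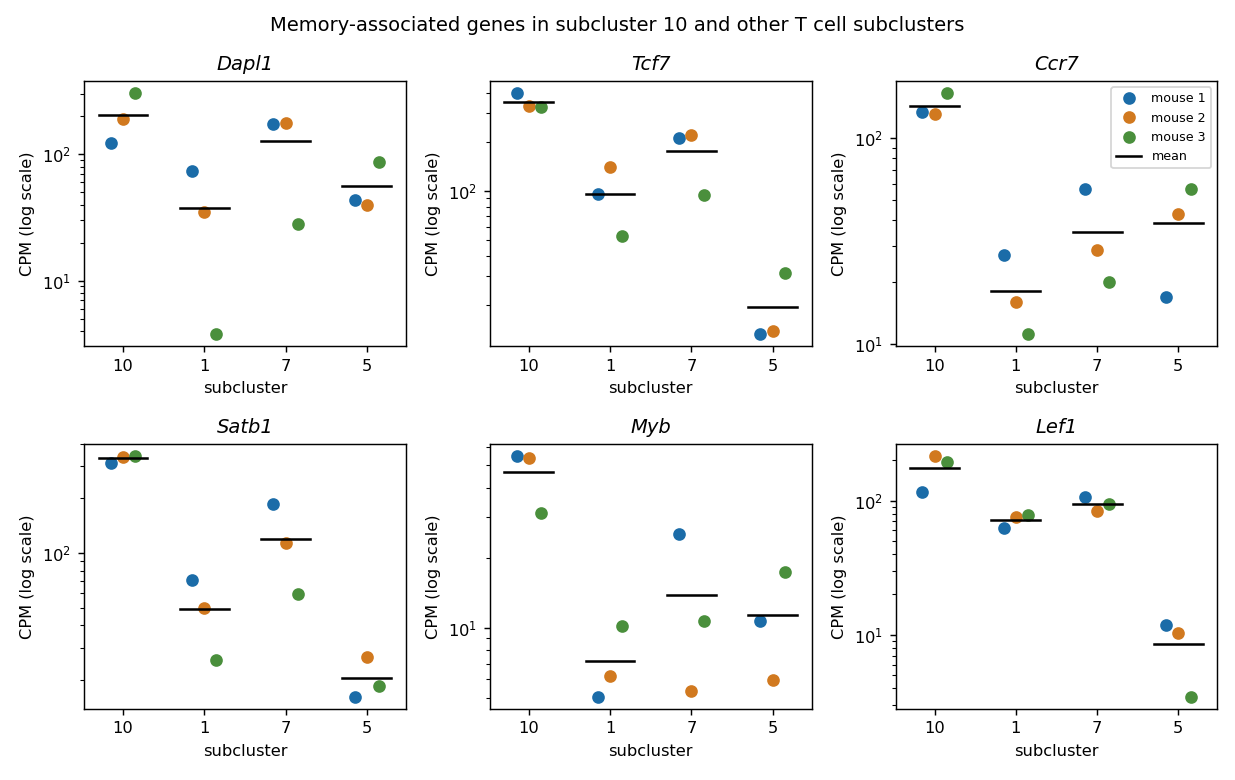
CPM (log axis) of Dapl1, Tcf7, Ccr7, Satb1, Myb and Lef1 in subclusters 10, 1, 7 and 5, with a point for each of 3 mice and a bar for the mean. Every point of subcluster 10 lies above those of the other subclusters for Tcf7, Ccr7, Satb1, Myb and Lef1, while the Dapl1 points of subclusters 10 and 7 overlap and that of mouse 3 in subcluster 1 lies at 3.78 CPM.

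Within subcluster 10 the markers were unevenly detected. A Dapl1 UMI was found in 51 of 129 cells (39.5%, 31.0 to 48.5), in 11 of 41, 7 of 22 and 33 of 66 by mouse. All 4 of Dapl1, Tcf7, Ccr7 and Satb1 were found in 27 cells, and at least 3 in 88 (68.2%, 59.4 to 76.1). Both Dapl1 and Ccr7 were present in 28 cells: 12.2%, 13.6% and 30.3% of the cells of mice 1, 2 and 3. At 5000 UMIs per cell, Dapl1 was found in 33.3% of subcluster 10 (25.3 to 42.2), 6.89% of subcluster 7, 2.92% of subcluster 1 and 0.532% of the Siglech cluster. Thinning left out none of the 129 cells, and 85 in the series. Ccr7 was found in 34.9% of subcluster 10 at this depth (58.9% unthinned), 7.78% of subcluster 7 and 3.19% of the Siglech cluster. Tcf7 was the most widely detected of the 4, in 78.3% of subcluster 10 (94.6% unthinned), 59.7% of subcluster 3 and 0.228% of the Siglech cluster. The intervals cover counting error only.

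**Figure D2:**
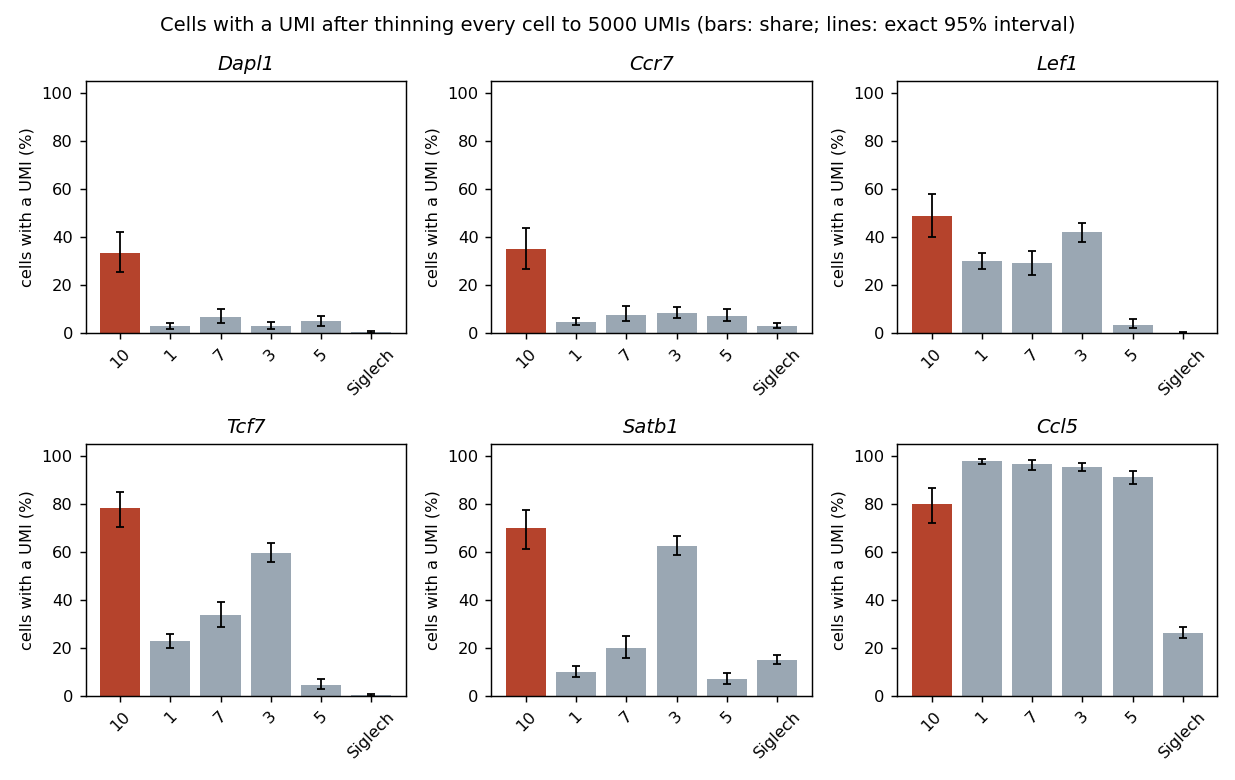
Percent of cells with at least 1 UMI of Dapl1, Ccr7, Lef1, Tcf7, Satb1 and Ccl5 after thinning to 5000 UMIs, by subcluster (10, 1, 7, 3, 5) and for the Siglech cluster, with exact 95% intervals. Dapl1 and Ccr7 reach 33.3% and 34.9% in subcluster 10 and stay under 10% elsewhere, whereas Tcf7 and Satb1 are also frequent in subcluster 3.

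More genes were called lower than higher in each comparison of subcluster 10 with other cells, though not against subcluster 1 once ribosomal protein genes were taken out of the total (92 higher and 83 lower). Against subcluster 1, 26 of 4187 genes tested (0.621%) were called higher and 108 (2.58%) lower. Against subcluster 7, 12 of 4124 (0.291%) were called higher and 68 (1.65%) lower. Against subcluster 5, 134 of 4275 (3.13%) were called higher and 313 (7.32%) lower. Against the other cells of the Cd3g cluster, 8 of 4146 (0.193%) were called higher and 83 (2%) lower, and against all other cells 87 of 4549 (1.91%) higher and 708 (15.6%) lower. These comparisons share the cells of subcluster 10. Subcluster 15 of the Cd3g cluster, 44 cells with a Cd8a UMI in 70.5%, had 9 cells in mouse 1 and was not compared gene by gene. At 5000 UMIs Dapl1 was found in 7.14% of its cells. Subcluster 3 of the Cd3g cluster, with a Cd8a UMI in 20.1% of its cells, was not compared gene by gene. At 5000 UMIs it was nearer to subcluster 10 than subclusters 1 and 7 in the shares of cells with Tcf7, Satb1, Lef1 (48.8%, against 42.0%, 29.9% and 29.0% in subclusters 3, 1 and 7) and Nsg2 (31.8%, against 21.0%, 1.99% and 5.39%). The same held for Il7r (57.4%, against 52.7%, 16.1% and 31.4%), Gzmk (1.55%, against 1.46%, 55.8% and 45.5%) and Pdcd1 (6.98%, against 3.09%, 28.3% and 30.2%). Other genes went the other way, with subcluster 1 or 7 nearer. Among them were Dapl1 (33.3%, against 3.09%, 2.92% and 6.89%), Cd8a (74.4%, against 13.8%, 87.9% and 86.2%) and Cd8b1 (80.6%, against 9.27%, 90.6% and 89.8%). So were Il2rb (61.2%, against 88.3%, 54.2% and 59.9%), Xcl1 (37.2%, against 80.3%, 13.1% and 13.8%) and Ly6c2 (96.9%, against 77.7%, 89.1% and 81.7%).

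The split depended on the scaling, and ribosomal transcripts filled more of each cell's UMIs here than elsewhere. The median tested gene lay at -0.31 (log2) against subcluster 1, -0.25 against subcluster 7, -0.34 against subcluster 5, -0.28 against the rest of the Cd3g cluster and -0.34 against all other cells, and differences below are to be read against these shifts. With TMM (trimmed mean of M-values) scaling the counts higher and lower were 50 and 64 against subcluster 1, 17 and 45 against subcluster 7, 169 and 245 against subcluster 5, 15 and 62 against the other cells of the Cd3g cluster and 196 and 541 against all other cells. With ribosomal protein genes taken out of the total they were 92 and 83, 46 and 56, 263 and 273, 34 and 71, and 297 and 580 in the same order. Since the rule asks for every mouse, leaving out a mouse enlarged most counts. Without mouse 1, 2 or 3 there were 56, 42 or 36 genes higher and 185, 181 or 184 lower against subcluster 1. Against subcluster 7 there were 32, 21 or 23 higher and 126, 145 or 117 lower. Against subcluster 5 there were 479 lower without mouse 1, against the rest of the Cd3g cluster 24 higher and 134 lower without mouse 1 and 13 and 126 without mouse 2, and against all other cells 154 higher without mouse 3.

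Genes of lymph node homing and egress differed most from subcluster 5. Of 9 listed genes, 8 were tested against each of subclusters 1, 7 and 5. Over all tested genes, 0.621%, 0.291% and 3.13% were called higher in these comparisons and 2.58%, 1.65% and 7.32% lower. Among the listed genes, 1 was called higher (Ccr7) and 1 lower against subcluster 1, and the same counts held against subcluster 7. Against subcluster 5, 6 were called higher and none lower: Ccr7, S1pr1, Klf2, Itgb7, Cxcr4 and Gpr183. S1pr1, the receptor for egress along sphingosine 1-phosphate, was at 53.2, 111 and 98.8 CPM and 2.61, 0.856 and 3.46 in subcluster 5. Klf2, a factor that drives S1pr1 transcription, was at 784, 695 and 1626 CPM, highest in mouse 3, against 57.8, 58.2 and 85.4 in subcluster 5 and 423, 378 and 384 in subcluster 1, where the difference of 1.28 ± 0.69 was not called. The lower member was Itga4, the alpha-4 integrin that binds VCAM-1: 93.1, 111 and 96.6 CPM against 300.0, 431 and 532 in subcluster 1 and 233, 538 and 577 in subcluster 7. It was lower in every mouse, with log2 differences of -2.03 ± 0.39 and -2.05 ± 0.65.

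Transcription factors of naive and memory cells were higher in part. Over all tested genes, 0.621%, 0.291% and 3.13% were called higher against subclusters 1, 7 and 5. Of 20 listed genes, 19 were tested in each of these comparisons. Called higher were 3 against subcluster 1 (Tcf7, Satb1, Myb), 1 against subcluster 7 (Myb) and 8 against subcluster 5, with none lower. With ribosomal protein genes out of the total these counts were 7, 2 and 10, again with none lower. Over all genes tested that way, 92 of 5507, 46 of 5510 and 263 of 5670 were called higher. Myb, a factor of stem-like CD8 T cells, stood at 54.8, 53.9 and 31.0 CPM against 5.06, 6.24 and 10.2 in subcluster 1 and 25.3, 5.35 and 10.7 in subcluster 7. Lef1, the partner of Tcf7, was at 116, 215 and 194 CPM. Mouse 1 was low here, and the difference of 1.24 ± 0.32 from subcluster 1 (62.4, 74.8 and 77.6 CPM) was not called. Id3 was at 93.1, 108 and 56.3 CPM and 44.7, 69.5 and 38.6 in subcluster 7, and was called only against subcluster 5 and all other cells. Eomes, a T-box factor of memory CD8 T cells, had its highest mean of the 16 subclusters here, 68.5 ± 27.0 CPM, next to 60.6 ± 8.55 in subcluster 3, a difference within the spread. Its values of 66.5, 96.4 and 42.5 CPM were not called against subclusters 1, 7 or 5. Ikzf2, encoding Helios, was split by mouse: 233, 258 and 34.5 CPM, with mouse 3 far below the others, as it also was in subclusters 1 (57.3, 25.8 and 13.4) and 7 (99.1, 53.5 and 22.8).

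Survival genes and cytokine receptors differed mainly from subcluster 5. Il7r, the IL-7 receptor chain, was at 259, 238 and 301 CPM in subcluster 10 and 16.1, 17.5 and 26.6 in subcluster 5, but at 283, 262 and 43.5 in subcluster 1 and 422, 289 and 102 in subcluster 7, where only mouse 3 was far below subcluster 10. Bcl2, the anti-apoptotic protein, was at 611, 360.0 and 332 CPM and higher than subcluster 1 by 0.95 ± 0.08, under 2-fold in mice 1 and 2 and so not called. Il6ra, the IL-6 receptor chain, was called higher against subcluster 7 (24.9, 39.7 and 42.5 against 7.77, 19.6 and 10.7 CPM), and its signalling partner Il6st against subcluster 1 (34.9, 51.0 and 31.0 against 8.43, 10.7 and 7.19). Of the 16 genes of this list, 13, 13 and 14 were tested against subclusters 1, 7 and 5. Over all tested genes, 0.621% and 2.58% were called higher and lower against subcluster 1, and 0.291% and 1.65% against subcluster 7. Among the listed genes, 1 was called higher and 1 lower (Cish, a suppressor of cytokine signalling) against subcluster 1. The counts were 1 and 0 against subcluster 7, and 6 and 3 against subcluster 5, where 3.13% and 7.32% of all tested genes were called. The lower members there were Cish, Il2ra and Il2rb.

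Surface genes of central and virtual memory were mixed. Cd44, an activation marker that central memory cells keep, was at 58.2, 53.9 and 55.2 CPM, under 101, 86.4 and 66.2 in subcluster 1, and was not called. Il2rb was at 229, 247 and 185 CPM and did not differ consistently from subcluster 7 (0.00 ± 0.54). Ly6c2 was at 1464, 1222 and 1541 CPM, within the range of subcluster 7 (1421, 1275 and 1913) and above that of subcluster 5 (328, 223 and 313). Cxcr3, a receptor for interferon-induced chemokines, was lower: 111, 125 and 125 CPM against 241, 327 and 316 in subcluster 1 and 231, 316 and 316 in subcluster 7. Without ribosomal protein genes in the total its differences were -0.97 from each. Of the 11 genes of this list, 10 were tested against each of the 2. Called higher and lower were 0 and 4 against subcluster 1, and 0 and 3 against subcluster 7. Over all tested genes, 2.58% and 1.65% were called lower.

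Transcripts associated with naive T cells were present beside these. Treml2, a receptor of the TREM family, was at 38.2, 59.5 and 65.5 CPM against 3.37, 1.78 and 2.08 in subcluster 1, a log2 difference of 4.01 ± 0.73. Nsg2, an endosomal protein known from neurons and naive T cells, was at 76.4, 76.5 and 62.1 CPM against 11.8, 10.7 and 2.46 and 31.1, 26.7 and 12.5 in subclusters 1 and 7, and Tmem108 at 39.9, 45.4 and 54.0 against 8.43, 3.56 and 1.70 in subcluster 1. Of 17 listed genes, 11 were tested against each of subclusters 1, 7 and 5. Called higher were 3 against subcluster 1, 1 against subcluster 7 and 5 against subcluster 5, with none lower. Over all tested genes, 0.621%, 0.291% and 3.13% were called higher.

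Other genes called higher against both CD8 neighbours included metabolic and membrane proteins. Atp1b1, a subunit of the sodium pump, was at 54.8, 42.5 and 28.7 CPM against 10.1, 3.56 and 5.68 and 9.72, 3.57 and 2.32, and Gpr146, a G protein-coupled receptor, at 31.6, 34.0 and 29.9 against 10.1, 8.91 and 5.11 and 7.77, 5.35 and 9.76. Impdh2, the rate-limiting enzyme of guanine nucleotide synthesis, was at 189, 189.9 and 134 CPM against 75.8, 82.0 and 50.9 and 60.3, 60.6 and 53.4. Mettl1, the tRNA guanine methyltransferase, differed by 1.92 ± 0.92 and 1.63 ± 0.56. Ms4a4c, a tetraspan membrane protein, was at 198, 306 and 211 CPM against 87.6, 40.1 and 35.9 and 91.3, 76.7 and 44.6.

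The promoters of these genes were examined for short motifs. Together 28 genes were called higher against subcluster 1 or 7, and 23 matched the RefSeq promoter table (GRCm38.p6, the assembly also called mm10). The searched windows were the 250 bases before each annotated start, on both strands. The KLF core CCACCC, which Sp factors also read, was present in 15 of the 23 genes (65.2%), against 36.2% of 3567 genes tested against either subcluster, 36.4% of 88 matched genes called lower and 30.6% of all 27025 genes of the table. Counted by window it was 18 of 36 (50%) against 32.0% of 4557. The TCF/LEF core CTTTGA was present in 3 of 23 (13.0%) against 12.7% of tested genes, the ETS core CCGGAA in 4 (17.4%) against 29.2%, and the palindromic E-box CAGCTG in 5 (21.7%) against 11.8%. The KLF core can share up to 2 letters with the ETS core and 1 with each of the others, on either strand. These shares describe letters in a window and no binding. Impdh2 and Ms4a4c, each with a single annotated start, hold the KLF core, whereas the window of Dapl1, which was not called against subcluster 1 or 7 and is shown as the namesake gene, holds no KLF core. Their windows are shown for that contrast, 5′ to 3′ on the plus strand, which is the gene's strand in each, with the KLF core on either strand in capitals.
Impdh2, chr9:108560186-108560435: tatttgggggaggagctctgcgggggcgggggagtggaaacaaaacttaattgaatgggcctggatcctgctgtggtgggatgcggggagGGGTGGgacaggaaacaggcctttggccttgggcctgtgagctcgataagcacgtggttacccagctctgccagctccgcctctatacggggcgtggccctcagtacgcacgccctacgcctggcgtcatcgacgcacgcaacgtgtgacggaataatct
Ms4a4c, chr19:11407411-11407660: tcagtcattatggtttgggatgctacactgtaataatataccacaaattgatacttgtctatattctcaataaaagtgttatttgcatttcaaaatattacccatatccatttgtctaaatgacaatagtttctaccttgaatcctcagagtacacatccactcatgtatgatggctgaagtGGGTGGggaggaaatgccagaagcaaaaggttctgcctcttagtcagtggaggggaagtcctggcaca
Dapl1, chr2:59484403-59484652: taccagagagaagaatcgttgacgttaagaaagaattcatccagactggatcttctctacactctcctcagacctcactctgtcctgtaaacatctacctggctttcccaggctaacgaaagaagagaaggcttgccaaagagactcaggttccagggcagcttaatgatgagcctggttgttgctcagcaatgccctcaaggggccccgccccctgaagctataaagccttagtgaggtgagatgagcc

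A part of the listed effector genes was called lower. Ccl5, the chemokine that memory and effector CD8 T cells store as mRNA, was at 1572, 1154 and 2331 CPM in mice 1, 2 and 3, against 7928, 10515 and 18691 in subcluster 1 and 4288, 7635 and 17732 in subcluster 7. The log2 differences were -2.84 ± 0.45 and -2.37 ± 0.80, yet the transcript was widely present. A Ccl5 UMI was present in 116 of the 129 cells (89.9%), and in 79.8% at 5000 UMIs, against 97.9% of subcluster 1 and 26.4% of the Siglech cluster. Ccl5 and Ccr7 were found together in 65 cells (50.4%).

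Of the 23 cytotoxicity genes with a row, 17, 17, 20 and 18 were tested against subclusters 1, 7, 5 and the rest of the Cd3g cluster. In that order 10, 6, 16 and 12 were called lower, and none higher. Over all tested genes, 2.58%, 1.65%, 7.32% and 2% were called lower. With ribosomal protein genes out of the total the lower counts were 7, 5, 15 and 9, with 1 gene higher against subcluster 7 and 1 against subcluster 5. Over all genes tested that way, 83 of 5507, 56 of 5510, 273 of 5670 and 71 of 5480 were lower. Higher were 46 of 5510 against subcluster 7 and 263 of 5670 against subcluster 5. Gzmk, granzyme K, was at 4.98, 2.84 and 6.90 CPM against 91.0, 127 and 245 in subcluster 1 and 71.9, 71.3 and 204 in subcluster 7. Low Gzmk was shared with subcluster 3: after thinning it was found in 1.55% of subcluster 10 and 1.46% of subcluster 3. Gzmb, granzyme B, was at 68.1, 116 and 39.1 CPM against 725, 241 and 887 in subcluster 1, where it was called lower, and 227, 162 and 658 in subcluster 7, where mouse 2 differed by less than 2-fold. Nkg7, a protein of cytotoxic granules, was at 959, 978 and 1097 CPM against 2183, 2520.5 and 2956 in subcluster 1. Gzmd, Gzme and Gzmf had 0 UMIs. The median of the list's measured members was -1.61 against subcluster 1 and -1.55 against subcluster 7, beside -0.29 and -0.24 over all genes that reach 10 CPM.

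**Figure D3:**
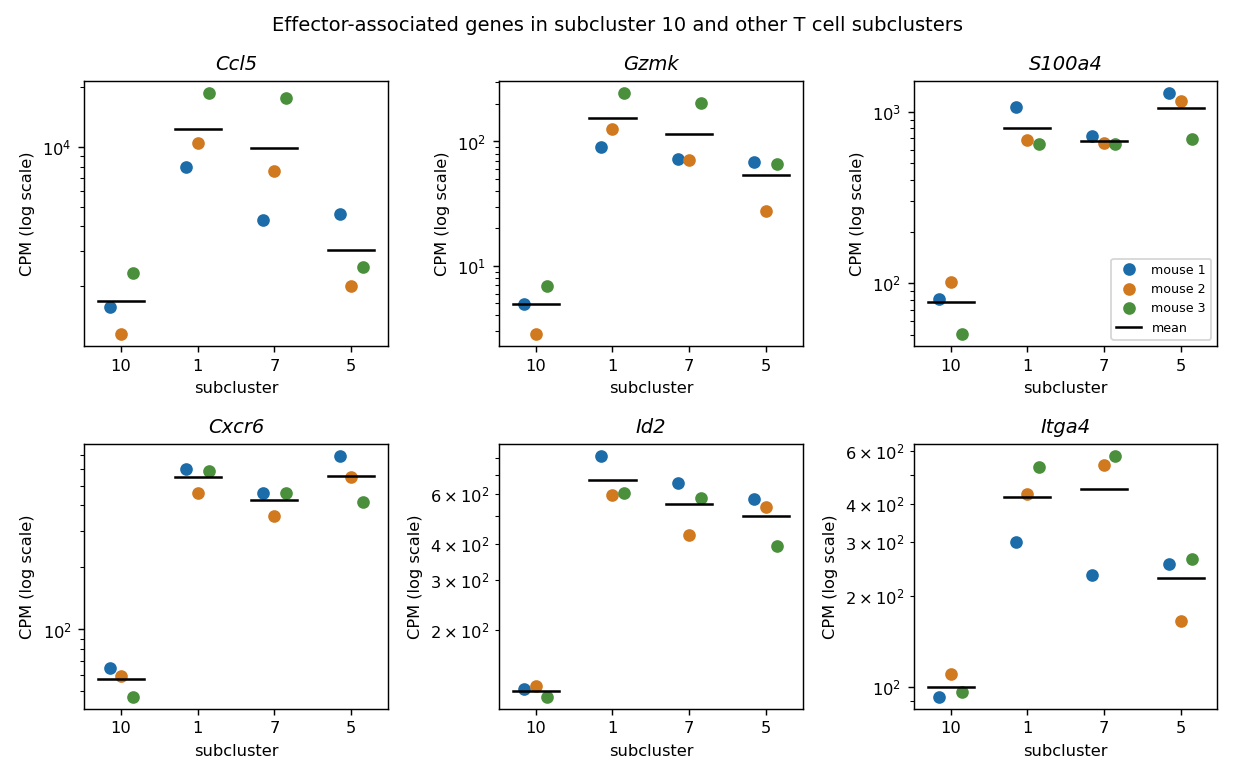
CPM (log axis) of Ccl5, Gzmk, S100a4, Cxcr6, Id2 and Itga4 in subclusters 10, 1, 7 and 5, with a point per mouse and a bar for the mean. Every point of subcluster 10 lies below those of subclusters 1 and 7 in all 6 panels.

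Among 22 genes of effector differentiation, 17, 17 and 19 were tested against subclusters 1, 7 and 5, where 2.58%, 1.65% and 7.32% of all tested genes were lower. Called lower were 11 against subcluster 1, 7 against subcluster 7 and 11 against subcluster 5, and none higher. Without ribosomal protein genes in the total the counts were 7, 5 and 11. Lower over all genes tested that way were 83 of 5507, 56 of 5510 and 273 of 5670. S100a4, a calcium-binding protein of effector and migratory cells, was at 81.4, 102 and 50.6 CPM against 1072, 688 and 648 in subcluster 1 and 721, 658 and 646 in subcluster 7, and S100a6 at 299, 502 and 318 against 1738, 1766 and 2217 and 1335, 1479.9 and 2245. Id2, the factor that opposes E proteins in effector cells, was at 125, 128 and 117 CPM against 814, 595 and 604 and 653, 431 and 578, differences of -2.42 ± 0.25 and -2.14 ± 0.34. Cxcr6, a chemokine receptor of tissue-homing T cells, was at 64.8, 59.5 and 47.1 CPM against 600.0, 462 and 590.0 and 459, 357 and 459. Klrk1, encoding the receptor NKG2D, was at 146, 31.2 and 52.9 CPM, highest in mouse 1, against 401, 213 and 153 in subcluster 1. Klrg1, a receptor of terminal effectors, had 0 UMIs. Tbx21, encoding T-bet, was at 39.9, 25.5 and 28.7 CPM against 43.8, 43.7 and 56.2 in subcluster 1 and was not called.

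Residency and checkpoint genes separated by partner. Over all tested genes, 2.58%, 1.65% and 7.32% were called lower against subclusters 1, 7 and 5. Of the 14 residency genes with a row, 8 were tested against subcluster 1 and 7 against subcluster 7. Called lower were 3 against subcluster 1 (Itga1, Cxcr6, Rgs1) and 2 against subcluster 7 (Itga1, Cxcr6). Itga1, the collagen-binding CD49a chain, was at 1.66, 0 and 3.45 CPM against 27.0, 46.3 and 112 in subcluster 1. Itgae, encoding CD103, was near 0 in subcluster 10 (1.66, 11.3 and 0 CPM) and below 30 CPM in subclusters 1, 7 and 5, so that it was not tested. Cd69 was not lower: 341, 292 and 438 CPM against 273, 274 and 278 in subcluster 1. Of the 19 checkpoint and exhaustion genes with a row, 11, 11 and 15 were tested against subclusters 1, 7 and 5. Called lower were 4 against subcluster 1, 1 against subcluster 7 and 11 against subcluster 5. Pdcd1, encoding PD-1, was at 31.6, 59.5 and 5.75 CPM, low in mouse 3, against 339, 340.3 and 367 in subcluster 5. Against subcluster 1 (129.8, 92.7 and 85.7) mouse 2 differed by less than 2-fold. After thinning, Pdcd1 was found in 6.98% of subcluster 10 and 3.09% of subcluster 3. Tox, the factor of exhausted T cells, was at 36.6, 48.2 and 27.6 CPM against 189, 155 and 154 in subcluster 1 and 320.0, 219 and 284 in subcluster 5.

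**Figure D4:**
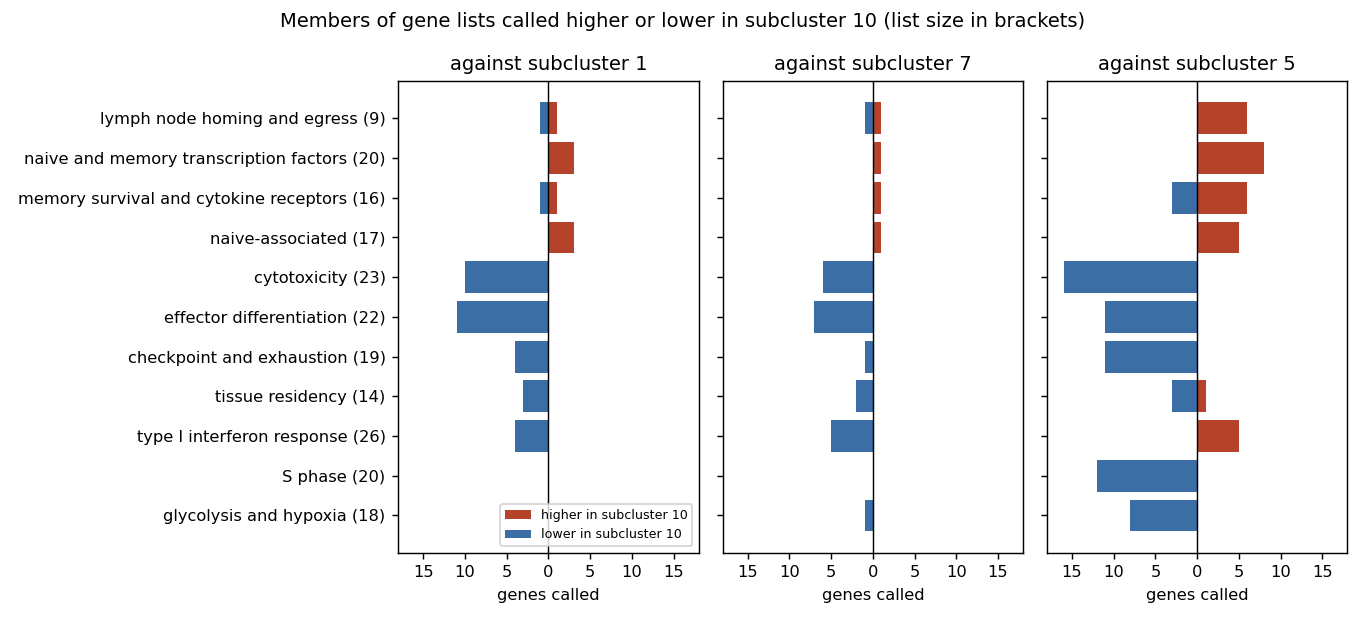
Number of genes of 11 lists called higher (right) or lower (left) in subcluster 10 against subclusters 1, 7 and 5, with the genes that have a row in brackets. Not every gene with a row was tested. Some cytotoxicity and effector differentiation genes are called lower against each of the 3, while interferon genes are lower against subclusters 1 and 7 (4 and 5 genes) and higher against subcluster 5 (5 genes).

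Interferon response genes differed in sign by the cells compared. Of 26 listed genes, 18, 19 and 16 were tested against subclusters 1, 7 and 5. Called lower were 4 against subcluster 1 (Isg15, Ifit3, Ifi27l2a, Xaf1) and 5 against subcluster 7, whereas 5 were called higher against subcluster 5. Over all tested genes these shares were 2.58%, 1.65% and 3.13%. Isg15, the ubiquitin-like modifier, was at 44.9, 93.6 and 41.4 CPM against 187, 228 and 175 in subcluster 1, 104.95, 199.7 and 189 in subcluster 7 and 54.9, 39.4 and 20.8 in subcluster 5. Without ribosomal protein genes in the total 5 genes were lower against subcluster 1, 1 against subcluster 7, and 8 higher against subcluster 5. Over all genes tested that way, 83 of 5507 and 56 of 5510 were lower and 263 of 5670 higher in these comparisons. Cell cycle genes differed mainly from subcluster 5. Of 20 S phase and 22 G2 and M phase genes, 17 and 6 were tested against subcluster 5. Called lower there were 12 and 6, where 7.32% of all tested genes were called lower. Against subclusters 1 and 7 only 8 and 7 S phase genes and 1 G2 and M gene each reached 30 CPM and were tested, and 1 gene (Cenpa, a centromere histone) was called, lower against subcluster 1. The S phase list summed to 464 to 581 CPM in subcluster 10, 443 to 584 in subcluster 7, which overlaps it, 627 to 731 in subcluster 1 and 1384 to 2168 in subcluster 5. The G2 and M list summed to 77.0 to 96.4 CPM in subcluster 10, 125 to 169 in subcluster 7 and 456 to 661 in subcluster 5. Of 18 glycolysis and hypoxia genes, 15 were tested against subcluster 5 and 13 against subcluster 1. Called lower were 8 against subcluster 5, among them Ldha (535, 522 and 413 CPM against 1089, 1291 and 839), and 0 against subcluster 1. The heat shock genes Hspa1a and Hspa1b were also low: Hspa1b was at 8.31, 11.3 and 5.75 CPM against 106, 347 and 111 in subcluster 1.

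Ribosomal transcripts took up more of each cell's UMIs than in any other subcluster. The authors' ribosomal percent had a median of 40.4% in subcluster 10, with 40.5%, 39.0% and 40.4% in mice 1, 2 and 3. In the other 15 subclusters the medians lay between 16.2% and 30.5%, and the 10th percentile of subcluster 10, 33.3%, was above all of them. The 84 ribosomal protein genes summed to 429965 to 448622 CPM over the mice, against 295586 to 307716 in subcluster 1 and 295674 to 337066 in subcluster 7. This list was added after its values were seen. Of its genes 82 were tested in each comparison. None was called against subclusters 1 or 7, 1 (Rps27) was higher against subcluster 5 and 7 were higher against all other cells. Over all tested genes, 0.621%, 0.291%, 3.13% and 1.91% were called higher in these 4 comparisons. The median log2 difference of the ribosomal protein genes was 0.53 against subcluster 1. The median mitochondrial percent was 2.66%, within the range of the other subclusters.

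**Figure D5:**
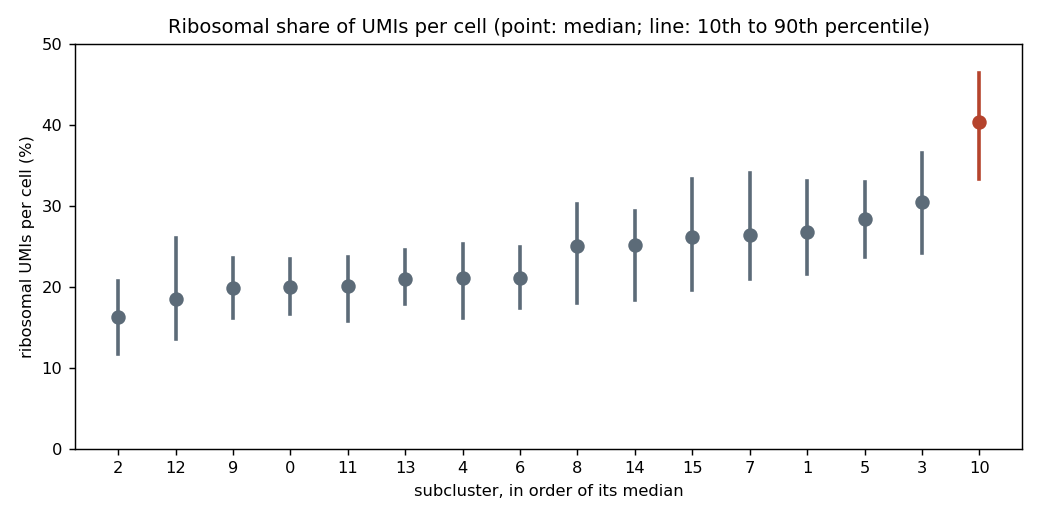
Percent of a cell's UMIs from ribosomal genes, by subcluster in order of its median, with points for medians and lines from the 10th to the 90th percentile over cells of all mice. Subcluster 10 is last with 40.4%, after subcluster 3 with 30.5%.

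The antibody used for sorting bound JAML, and Jaml transcript was detected in 80 of the 129 cells (62.0%, 53.1 to 70.4), 75.6%, 72.7% and 50% by mouse. Jaml was at 159.5, 167 and 93.1 CPM, lowest in mouse 3, against 182, 224 and 222 in subcluster 1, 218, 235 and 210.0 in subcluster 7 and 82.6, 68.5 and 68.1 in subcluster 5, and was called in none of these. At 5000 UMIs its share was 40.3% in subcluster 10 and 86.0% in the Siglech cluster. All cells came through a sort for the protein, so no cell type here is a Jaml-negative reference. Cxadr, its ligand's gene, was at 1.66, 0 and 1.15 CPM, below the level of 3 UMIs over the group.

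The split of subcluster 10 by Jaml is a division that the clustering did not make, and it was tested. Cells with and without a Jaml UMI were brought to equal numbers within 3 classes of depth in each mouse, 10 and 10 cells in mouse 1 and 29 and 29 in mouse 3. Mouse 2 had 5 and 5 and was left out, so the test rests on 2 mice and has 1 residual degree of freedom. By edgeR's quasi-likelihood test with the mouse as a block and Benjamini-Hochberg adjustment, 7 of 2888 genes (0.242%) were higher and 59 (2.04%) lower with Jaml, and 223 had an unadjusted p under 0.05. Vim, the intermediate filament vimentin, was higher by 0.90 ± 0.23 (log2, SE, adjusted p = 0.0047), with 409 against 154 CPM in mouse 1 and 493 against 275 in mouse 3. Cd160, a receptor of cytotoxic lymphocytes, was higher by 1.92 ± 0.47 (adjusted p = 0.0031), with 87.7 against 40.4 CPM and 86.1 against 13.6. Ly6c2 was higher by 0.43 ± 0.12 (adjusted p = 0.020) and S100a6 by 0.87 ± 0.26 (adjusted p = 0.041). For Ly6c2 the difference lay mainly in mouse 3, with 1905 against 1076 CPM, beside 1476 against 1302 in mouse 1. S100a6 was at 226 against 80.9 CPM in mouse 1 and 373 against 210 in mouse 3. Grina, Zfp62 and Pmepa1 completed the higher genes, Pmepa1 with 36.5 against 40.4 CPM in mouse 1 and thus higher in mouse 3 alone.

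Of the 59 lower genes, 54 were ribosomal protein genes, out of 82 tested, and 81 of the 82 lay below 0 with a median of -0.24 against -0.0046 over all genes. The other 5 were Tpt1, Eef1a1, Rack1, mt-Atp6 and mt-Nd1. In mouse 3 Eef1a1 (9414 against 9650 CPM), Rack1 (4061 against 4152) and mt-Atp6 (4930 against 5016) hardly differed. Tpt1 (11468 against 13031) and mt-Nd1 (1467 against 1659) differed more there. All 59 differences were small, from -0.40 to -0.19. The unmatched cells with and without Jaml had a median ribosomal protein share of 43.6% and 46.7% in mouse 1, 44.2% and 40.9% in mouse 2 and 42.4% and 46.8% in mouse 3, so mouse 2 went the other way. Matching was by total UMIs, so a cell with a lower ribosomal share has more other UMIs in which Jaml can be found. The test therefore cannot tell a lower ribosomal share from easier detection of Jaml. The median number of UMIs outside ribosomal protein genes was 6990 with and 6524 without a Jaml UMI in mouse 1. In mouse 3 it was 6991 and 6046, and its part in the result was not tested. No gene was called with all cells unmatched or by DESeq2, and another draw of cells gave 4 higher and 30 lower. Gzmb, left out by the filter on low counts in the matched cells above, was higher with Jaml in that other draw (2.44, adjusted p = 0.0148, edgeR) and did not pass with unmatched cells (2.74, adjusted p = 0.307) or without the filter (1.51, adjusted p = 0.993). Of the memory genes, Dapl1 (-0.70, adjusted p = 0.17), Tcf7 (-0.51, adjusted p = 0.37) and Ccr7 (-0.13, adjusted p = 0.994) did not pass edgeR's test, nor did Ccl5 (0.27, adjusted p = 0.27).

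Cells with and without Dapl1 were also compared inside subcluster 10, a division chosen after its values were seen and given without a test. Mice 1 and 3 had at least 10 cells of each class. Mouse 1 had 11 cells with and 30 without Dapl1, and mouse 3 had 33 and 33. Depth was not matched, with medians of 15353 and 12276.5 UMIs in mouse 1 and 11963 and 11645 in mouse 3. With so few cells, many of the CPM values below rest on few UMIs. Of 3895 genes, 28 (0.719%) were called higher and 19 (0.488%) lower with Dapl1, the gene Dapl1 itself included. Lcn4, a lipocalin, was at 50.7 against 22.3 CPM in mouse 1 and 49.1 against 15.8 in mouse 3, and Siah2, a ubiquitin ligase, at 35.5 against 9.89 and 63.1 against 18.1. Among the lower genes, Eomes was at 20.3 against 89.0 CPM in mouse 1 and 21.0 against 63.3 in mouse 3. Trdc, the constant gene of the T cell receptor delta chain, was at 0 against 69.2 and 9.35 against 131 CPM. Ccr7, Tcf7 and Satb1 were not called. Several genes called higher, such as Fcer1g and C1qc, were concentrated in mouse 1, where C1qa was at 329 against 2.47 CPM and the cell with many C1qa UMIs carried Dapl1. Its part in these counts was not tested.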

How the data were processed

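The authors deposited a matrix of UMI counts (15416 genes, 5976 cells, not normalized) and an annotation with clusters, hashtags and percent of mitochondrial and ribosomal UMIs per cell. Libraries were 10x Genomics 5' v2, per the labels. Cell Ranger 3.1.0, Seurat 3.1.5 and mm10 are named in the submitters' processing notes. Filters and cluster settings are not given in the sources used here. Subcluster 10 is the authors' RNA_snn cluster at resolution 0.8. The members and lists were chosen with earlier results of these data known.

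Counts were summed per mouse and class (at least 10 cells) and scaled to CPM. A gene was tested at 30 CPM in the higher class, and called at 2-fold the same way in every mouse. Genes named are the 15 called genes per direction with the largest ratio, without receptor segments, mitochondrial, ribosomal protein and unnamed genes, members of the lists, and Jaml, Cxadr, Cd69, Itgae, Pdcd1, Gzmb and Ccl5. From these the ones printed were picked, and the genes named for the Dapl1 split and the Trdc cells were chosen after their values were seen. For the Jaml split, edgeR 4.0.16 (TMM, filterByExpr, glmQLFTest, mouse as block) was run in R 4.3.3, with DESeq2 1.42.0 as an alternative. On simulated counts for that split, 194 of 200 genes changed 4-fold were recovered, with 13 others called of 2758. The simulation used a fixed dispersion and no mouse effect. Changes under 4-fold, such as those called in the split, were not simulated, so it does not bear on them. Shares have exact Clopper-Pearson 95% intervals, which cover counting error only. Shares of cells were also computed after thinning every cell to 5000 UMIs. No doublet caller was run. The classes of a mouse are paired by design, since they come from the same animal. Other alternatives were TMM, 10 CPM, thinning, removal of T cells with UMIs of other lineages, and leaving out each mouse. Python 3.11.15, numpy 2.4.6 and scipy 1.17.1 were used. The hashtag counts themselves were not used here. Some planned genes and a planned split of the cells are not reported here.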

Additional observations from a re-analysis of the deposited data

How the results depend on the processing

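Of 4122 values of named genes under alternatives, 3767 stayed within 1 SD of their value, 354 moved further and 1 called difference changed sign: Trdc against subcluster 5, at -0.66 without the cells of subcluster 10 that had 2 UMIs of Trdc or 5 of C1qa (8 and 1 cells, chosen after seeing the data). With a minimum of 10 CPM the counts higher and lower were 158 and 1205 against all other cells, 16 and 177 against the rest of the Cd3g cluster, 51 and 244 against subcluster 1, 37 and 136 against subcluster 7, and 236 and 524 against subcluster 5. With TMM scaling, the counts beyond 1.5 times were 196 higher against all other cells, 15 against the Cd3g cluster, 50 against subcluster 1 and, lower, 64 and 45 against subclusters 1 and 7. With CPM of a total without ribosomal protein genes, an alternative chosen after seeing the data, 297, 34, 92, 46 and 263 genes were higher in that order of comparisons. Thinning to 5000 UMIs gave 54 higher against all other cells. Removing T cells with 2 UMIs of Cd79a, Lyz2 or C1qa (40 of the 129), in place of a doublet caller, moved no count beyond 1.5 times, but ended many calls: 19 of 26 higher and 75 of 108 lower genes remained against subcluster 1, 7 of 12 and 48 of 68 against subcluster 7, and 251 of 313 lower genes against subcluster 5. Other alternatives ended calls as well. Of the same lower genes against subclusters 1, 7 and 5, thinning kept 76, 43 and 231. The total without ribosomal protein genes kept 61, 44 and 228 of them. Of the 26 and 12 higher genes, thinning kept 20 and 10, and that total kept all.

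Leaving out each mouse gave 100 to 154 higher and 782 to 816 lower against all other cells, 11 to 24 and 123 to 134 against the rest of the Cd3g cluster, 36 to 56 and 181 to 185 against subcluster 1, 21 to 32 and 117 to 145 against subcluster 7, and 143 to 180 and 382 to 479 against subcluster 5. Fewer mice make the rule easier to pass. The mean share of subcluster 10 was 1.77% to 2.34% without a mouse and 11.1% within the CD8 gate, which has another denominator.

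For the Jaml split, the fit with no replicate block, which leaves the mouse out, gave 1 gene higher and 51 lower. No filter on low counts gave 2 higher and 53 lower of 11178, another draw 4 and 30, unmatched cells 0 and 0 (279 genes with an unadjusted p under 0.05, edgeR), and DESeq2 0 and 0 (1 such gene). The cause was not tested. The same split without a mouse leaves 1 mouse and no residual degrees of freedom, and was not run. At 129 cells, a gene with 0 UMIs may still be at up to 1.64 CPM.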

Other observations

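A small set of cells in subcluster 10 carried the T cell receptor delta constant gene. At least 2 Trdc UMIs were found in 8 of the 129 cells, 2, 1 and 5 in mice 1, 2 and 3, with 136 UMIs in all and 0 in the other 121 cells. Among the 8, Cd8b1 was found in 4, Cd8a in 1 and Trac in 5, against 109, 109 and 121 of the other 121. Ccr7 was found in 5, Tcf7 in 7 and Dapl1 in 1. Of the gamma chain constant genes, Tcrg-C1 was found in 5 of the 8 against 2 of the 121, Tcrg-C4 in 4 against 7 and Tcrg-C2 in 1 against 6. Some of these gamma chain genes are alike enough that reads may be split among them. Of the beta chain constant genes, Trbc2 was found in all 8 and Trbc1 in 4. Ly6c2 and Ccl5 were found in all 8. Trdc in subcluster 10 stood at 46.5, 130.4 and 71.3 CPM in mice 1, 2 and 3.

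Segments of the T cell receptor beta chain were read in few cells. A Trbv UMI was present in 12, 8 and 17 cells of subcluster 10 in mice 1, 2 and 3, with 7, 6 and 10 different segments. Trbv12-2 was the most frequent segment in mice 1 and 3, in 4 cells each, and in mouse 2 it was tied with another segment at 2 cells. In subcluster 7 of mouse 1 it was also tied with another at the highest count, 3 of 16 cells. In subcluster 1 of mouse 3, Trbv19 led in 54 of 163 cells (33.1%), and in subcluster 5 of mouse 2, Trbv2 led in 34 of 62 (54.8%).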
